A study of Rattus norvegicus and Mus musculus with 24 samples.

Results

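The kidney returns filtered phosphate to the blood through a small set of transporters, and 8 genes of that system are described here in kidneys of Ctns knockout (KO) and wild-type (WT) mice and rats: the sodium phosphate cotransporters SLC34A1, SLC34A3, SLC20A1 and SLC20A2, the hormone receptor genes PTH1R, FGFR1 and KL, and the scaffold gene PDZK1. The genes were taken by symbol from 2 tables of expression values, both of which use human-style upper-case symbols. In the mouse 7 of the 8 were analysed among 17376 symbols, and in the rat 7 of the 8 among 14931 symbols. PDZK1 in the mouse and KL in the rat were not analysed here, so that 6 of the 8 could be described in both species.

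Ctns encodes cystinosin, which exports cystine from lysosomes, and its loss is the cause of nephropathic cystinosis. RNA-seq was done on kidneys of 4 Ctns KO and 4 WT mice (C57BL/6 background) and of 8 Ctns KO and 8 WT rats (Sprague-Dawley background), with littermates as controls. How the alleles were made is not given in the sources used here. The rats carry the numbers 17 to 24 and 25 to 32, with 4 animals of each genotype in each range, and the sources used here do not say what the ranges stand for. The study's reporting notes name only female mice, at several ages. The labels give no sex for single mice, and sex-linked markers are given under other observations. Which age applies to the mice used here, the treatment of the animals, and the age and sex of these rats are not given there. The labels name kidney cortex as the tissue and proximal tubule cells as the cell type, and their extraction text, the same for both species, speaks of microdissected tubules of mice. By the study's RNA-seq methods the RNA came from cortex samples of both species.

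Most filtered phosphate is taken up again in the proximal tubule, where SLC34A1 (NPT2a) and SLC34A3 (NPT2c) carry it together with sodium across the brush border membrane. SLC20A1 (PiT-1) and SLC20A2 (PiT-2) are sodium phosphate cotransporters found in most tissues. Parathyroid hormone, through its receptor PTH1R, and FGF23, through FGFR1 and the co-receptor klotho (KL), withdraw NPT2a and NPT2c from the brush border and so raise phosphate loss in urine. PDZK1 is a protein with several PDZ domains that holds NPT2a and other transporters at the brush border. Phosphate wasting is a classical feature of the renal Fanconi syndrome of cystinosis. Klotho is known mainly from the distal tubule, with lower levels in the proximal tubule.

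Library totals ran from 19309371 to 44449845 reads in mice and from 24684097 to 40629873 reads in rats, and every member analysed had at least 732 reads in every animal. CTNS itself stood at 36.2% of the WT mean in KO mice, with no overlap, and at 85.6% in KO rats, where the groups overlapped (log2 fold change -0.22, adjusted p = 0.0511, edgeR). In rats CTNS RNA is thus a weak check of the labels. All 15 proximal tubule markers analysed in the mouse and all 13 in the rat were present well above 0 (LRP2, SLC5A12 and ACSM2A were not analysed in the rat). Markers of the distal tubule were present too, with summed levels of 754 to 1452 CPM over 5 markers in WT rats, of which PVALB was at or near 0.

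In the mouse, levels could be compared between genes after division by exonic length (union of exons, GENCODE vM21, GRCm38). In the 4 WT mice SLC34A1 (gene at chr13:55398187-55415592, plus strand) stood highest, at 1074 ± 288 CPM per kb of exon (mean ± SD, n = 4; CPM, reads of a gene scaled to a common library total). PTH1R (chr9:110722085-110747145, minus strand) followed with 268 ± 61.8. KL (chr5:150952607-150993817, plus strand) was next with 102 ± 28.2 CPM per kb. The brush border cotransporter SLC34A3 (chr2:25228898-25234364, minus strand) was far below SLC34A1, at 40.9 ± 9.59 CPM per kb. The widely expressed SLC20A2 (chr8:22476788-22569612, plus strand) was at 10.8 ± 0.838 CPM per kb. FGFR1 (chr8:25513654-25575718, plus strand) and SLC20A1 (chr2:129198764-129211616, plus strand) were the lowest, at 8.66 ± 0.426 and 8.13 ± 1.26 CPM per kb, and of all neighbours in this order only these 2 had overlapping WT animals. In KO mice the first 5 kept their places, SLC20A1 ranked above FGFR1, and SLC20A1 overlapped SLC20A2.

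In the rat, 5 of the 7 members were lower in KO kidneys and none was higher, against 12.3% of all symbols tested that were called lower (edgeR quasi-likelihood test over all 16 rats, Benjamini-Hochberg adjusted p under 0.05). The 5 were the brush border cotransporters SLC34A1 and SLC34A3, the receptors PTH1R and FGFR1, and the scaffold PDZK1. The median log2 fold change was -0.44 over the 7 members and -0.020 over all symbols. Rat values are CPM on library sizes scaled by TMM (trimmed mean of M values), which correct for a few abundant genes taking a larger share of a library. In cortex, fewer proximal tubule cells and less of each RNA per cell cannot be told apart.

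SLC34A1, the main renal phosphate cotransporter, had a lowest, median and highest level of 4883, 6221 and 6845 CPM in the 8 WT rats. The corresponding levels in the 8 KO rats were 3087, 3905 and 4506 CPM. Every KO rat was below every WT rat, as was so for 4 of the 7 members and 1.95% of all symbols tested. The means were 6006 ± 658 CPM in WT and 3894 ± 559 CPM in KO rats (SD, n = 8), so that the KO mean was 64.8% of the WT mean (log2 fold change -0.63, SE 0.094, adjusted p = 0.000175, edgeR).

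SLC34A3, the second brush border cotransporter, ran through 273, 313 and 376 CPM (lowest, median, highest) in WT rats and 206, 239 and 253 CPM in KO rats. Again the 8 KO rats were all below the 8 WT rats. The KO mean of 236 ± 14.97 CPM was 73.7% of the WT mean of 321 ± 41.4 CPM (log2 fold change -0.44, SE 0.073, adjusted p = 0.000388, edgeR).

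The scaffold gene PDZK1 was lower as well. WT rats held 1166, 1330.2 and 1623 CPM (lowest, median, highest) and KO rats 804, 1002 and 1113 CPM. The groups did not overlap, and the means were 1369 ± 172 and 983 ± 89.3 CPM (log2 fold change -0.48, SE 0.081, adjusted p = 0.000452, edgeR).

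Of the receptors, PTH1R, which binds parathyroid hormone, was at 664, 733 and 822 CPM in WT rats and at 454, 536 and 583 CPM in KO rats (lowest, median, highest). All 8 KO rats lay below all 8 WT rats, with means of 743 ± 51.9 CPM in WT and 533 ± 46.6 CPM in KO animals (log2 fold change -0.48, SE 0.063, adjusted p = 4.98e-05, edgeR). FGFR1, a receptor for FGF23 and other fibroblast growth factors, moved less. It was at 104, 114 and 132 CPM in WT and 88.1, 99.6 and 109.7 CPM in KO rats. In 5 of 8 KO rats FGFR1 was below every WT rat, and the log2 fold change was -0.22 (SE 0.055, adjusted p = 0.00661, edgeR). With library totals in place of TMM, a scaling that shifts the median rat log2 fold change of all symbols by 0.093, the FGFR1 difference was -0.13 and no longer passed (adjusted p = 0.0941), while the other 4 calls remained.

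The SLC20 transporters did not follow the SLC34 pair. SLC20A1 was at 45.3, 56.8 and 65.5 CPM in WT rats and 54.3, 65.0 and 71.0 CPM in KO rats (lowest, median, highest). In 4 of 8 KO rats it was above every WT rat, and the log2 fold change was 0.18 (SE 0.075, adjusted p = 0.0794, edgeR). It passed without WT rat 23 or KO rat 26, and when the model also held the 2 ranges of animal numbers (adjusted p = 0.0184) or library totals (adjusted p = 0.0310, edgeR). SLC20A2 was at 28.7, 33.3 and 36.8 CPM in WT rats and 29.6, 31.6 and 33.5 CPM in KO rats. Its difference of -0.061 (SE 0.052, adjusted p = 0.405, edgeR) was within the spread and turned to 0.035 with library totals.

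The promoters of the 4 rat genes whose groups were fully separated are shown because these genes moved together (RefSeq, build GRCr8, 250 bases before to 50 after the annotated start; a different build from the rn5 named in the submitters' notes). Capitals mark matches to AGGTCA (bound by nuclear receptors), GTTAAT (part of the HNF1 element), TATAAA or CCAAT on either strand; CACGTG (an E-box) was also searched, and none of these motifs overlaps another in these windows.
SLC34A1 (chr17:9238934-9239233, minus strand): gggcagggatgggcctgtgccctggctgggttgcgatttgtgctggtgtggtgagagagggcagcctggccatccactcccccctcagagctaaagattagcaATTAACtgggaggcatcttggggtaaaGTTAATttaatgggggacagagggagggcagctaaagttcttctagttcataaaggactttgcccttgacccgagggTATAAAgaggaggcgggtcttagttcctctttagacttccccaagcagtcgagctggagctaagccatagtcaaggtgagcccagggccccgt
SLC34A3 (chr3:28447948-28448247, minus strand): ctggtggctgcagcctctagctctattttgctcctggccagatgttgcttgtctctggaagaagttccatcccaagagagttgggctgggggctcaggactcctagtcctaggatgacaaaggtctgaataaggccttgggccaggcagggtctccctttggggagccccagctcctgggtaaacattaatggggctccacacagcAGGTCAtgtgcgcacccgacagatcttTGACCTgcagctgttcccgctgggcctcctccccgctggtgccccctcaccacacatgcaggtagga
PTH1R (chr8:119595522-119595821, minus strand): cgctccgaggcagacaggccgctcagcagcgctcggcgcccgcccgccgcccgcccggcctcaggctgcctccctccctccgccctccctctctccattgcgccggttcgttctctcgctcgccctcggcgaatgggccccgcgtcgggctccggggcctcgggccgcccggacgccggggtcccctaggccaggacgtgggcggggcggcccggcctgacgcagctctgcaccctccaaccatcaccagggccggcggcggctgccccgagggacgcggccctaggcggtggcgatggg
PDZK1 (chr2:187064745-187065044, plus strand): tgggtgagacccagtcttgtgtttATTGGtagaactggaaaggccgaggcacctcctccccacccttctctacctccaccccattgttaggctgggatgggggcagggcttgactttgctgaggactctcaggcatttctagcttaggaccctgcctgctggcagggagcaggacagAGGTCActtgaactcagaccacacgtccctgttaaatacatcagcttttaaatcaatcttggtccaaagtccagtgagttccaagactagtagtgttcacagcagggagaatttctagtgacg

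SLC34A1 held GTTAAT once on each strand, at 120 bases before the start and, as the reverse complement, at 147 bases before it, and TATAAA at 43 bases before it. GTTAAT was present on either strand in 7.45% of 33469 rat promoters of the same length and TATAAA in 14.2%. AGGTCA, found in 16.2% of promoters, was present on both strands of SLC34A3, at 44 and 17 bases before the start, and once in PDZK1, 73 bases before it. PDZK1 also held CCAAT on the reverse strand (37.5% of promoters). PTH1R held none of the 5 motifs, and no window of the 4 held CACGTG (6.42% of promoters). The PTH1R window was the richest of the 4 in G and C, at 78.7%, against 54.7% in SLC34A1, 58.7% in SLC34A3, 51.7% in PDZK1 and a median of 51.7% over all promoters. The windows of the 4 genes had no motif of this list in common.

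**Figure D1:**
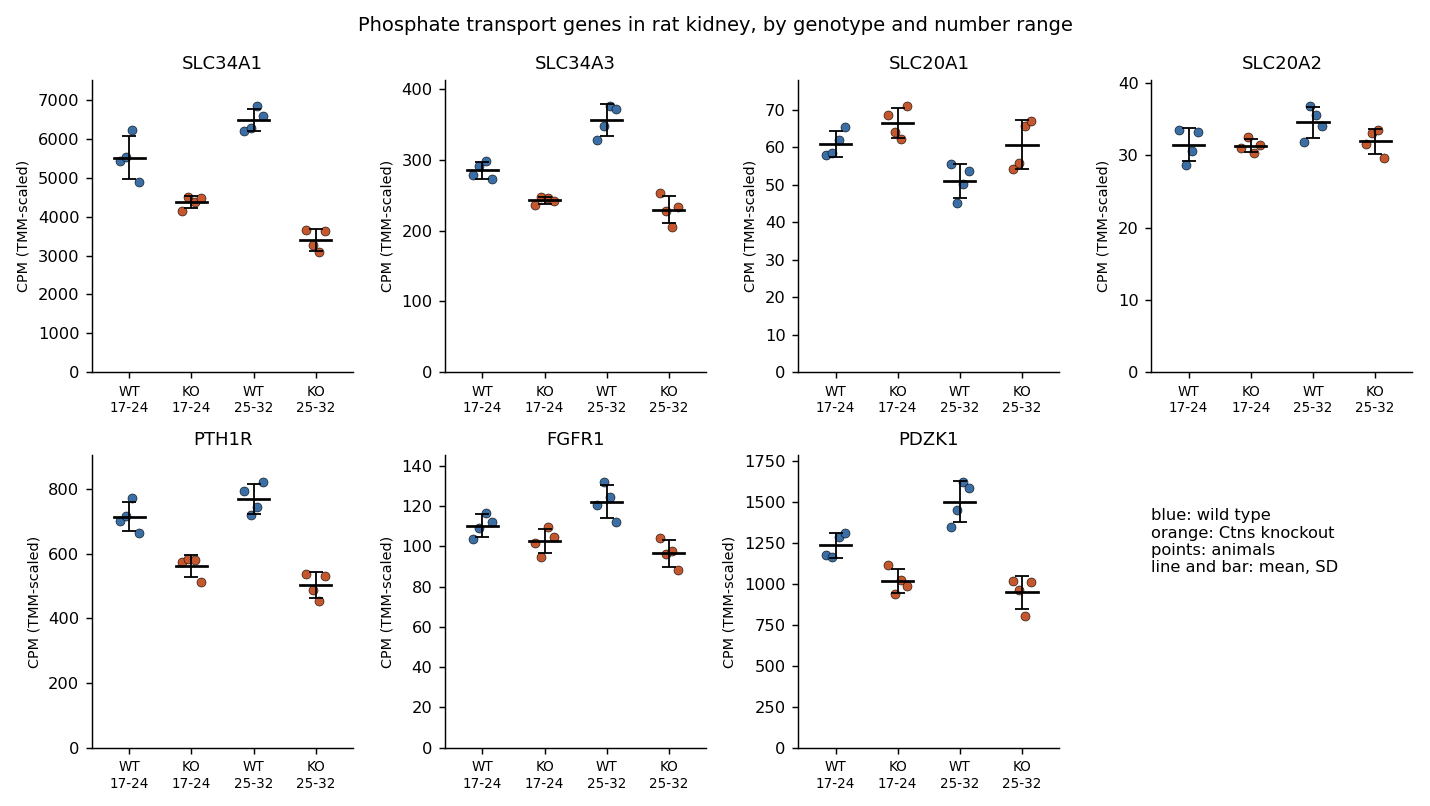
CPM on TMM-scaled libraries (y axes from 0) of the 7 genes analysed in the rat, for WT and KO rats of each number range, with 1 point per rat and the mean and SD of 4 rats. SLC34A1, SLC34A3, PTH1R and PDZK1 are lower in every KO rat than in every WT rat, and the gap is wider in rats 25 to 32.

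The genotype difference was then taken within each number range. In rats 17 to 24, 4 of the 7 members were lower in KO animals, with a background of 2.19% of symbols called lower, and none was higher (5.07% of symbols were). SLC34A1 was at 5440.4, 5539, 6229.8 and 4883 CPM in the 4 WT rats and at 4154, 4506, 4375 and 4479 CPM in the 4 KO rats. The groups were separate, as in 4 of the 7 members and 5.87% of all symbols, and the log2 fold change was -0.33 (SE 0.076, adjusted p = 0.0210, edgeR). The other 3 calls were PTH1R at -0.34 (adjusted p = 0.00660), PDZK1 at -0.27 (adjusted p = 0.0298) and SLC34A3 at -0.22 (adjusted p = 0.0160). FGFR1 (-0.10), SLC20A1 (0.13) and SLC20A2 (0.0030) did not pass. With 1 rat left out the number of calls ran from 1 to 4. PTH1R passed in all 8 such fits, SLC34A3 lost its call without WT rat 21 or KO rat 24, and SLC34A1 and PDZK1 each lost theirs in 5 of 8 fits. The SLC34A1 call needed WT rat 21 and each KO rat, and the PDZK1 call needed WT rats 21 and 23 and KO rats 20, 22 and 24.

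In rats 25 to 32, 5 members were lower (22.1% of all symbols were) and SLC20A1 was higher (21.8% of all symbols were). SLC34A1 was at 6213, 6298, 6845 and 6597 CPM in WT rats and at 3656, 3265, 3087 and 3629 CPM in KO rats. The KO mean was 52.5% of the WT mean, compared with 79.3% in rats 17 to 24 (log2 fold change -0.93, SE 0.078, adjusted p = 1.39e-05, edgeR). PDZK1 changed by -0.66 (adjusted p = 0.000276), SLC34A3 by -0.63 (adjusted p = 0.000112), PTH1R by -0.61 (adjusted p = 0.000128) and FGFR1 by -0.34 (adjusted p = 0.00407). In these 5 genes the 4 KO rats lay below the 4 WT rats, as in 19.9% of all symbols. SLC20A1 was at 55.6, 45.3, 50.1 and 53.6 CPM in WT and 54.3, 55.8, 65.7 and 67.0 CPM in KO rats, with 3 of 4 KO rats above every WT rat. Its difference of 0.25 (SE 0.091) was close to the threshold (adjusted p = 0.0475, edgeR) and lost the call in 5 of 8 fits with 1 rat left out, those without WT rats 27, 29 or 31 or KO rats 30 or 32, and without a filter on low counts. The FGFR1 call held in every such fit but not with library totals (-0.18, adjusted p = 0.108), which shift the median of this comparison by 0.16.

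The single rats behind these differences were as follows. PTH1R in rats 17 to 24 was at 703, 718, 773 and 664 CPM in WT and 574, 583, 579.5 and 512 CPM in KO animals. In rats 25 to 32 it was at 794, 719.5, 746 and 822 CPM in WT and 539, 487, 454 and 532 CPM in KO animals. The lowest KO value of the lower range, in rat 24, lay among the KO values of the higher range. FGFR1 was at 104, 109, 117 and 112 CPM in WT and 102, 94.9, 109.7 and 105 CPM in KO rats 17 to 24, which overlapped. In rats 25 to 32 FGFR1 was at 121, 132, 124 and 112 CPM in WT and 104, 96.5, 97.5 and 88.1 CPM in KO animals, with no overlap. The KO rats held 1113, 937, 1025 and 991 CPM of PDZK1 in the lower range and 1021, 964, 804 and 1012 CPM in the higher one. For SLC34A3 the KO values were 236, 248, 246 and 242 CPM and 253, 227, 206 and 234 CPM.

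The difference between the ranges was itself tested as an interaction term, which called 3 of the 7 members, all more negative in rats 25 to 32, with 14.7% of all symbols called and 7.64% called in this direction. The KO difference of SLC34A1 in rats 25 to 32 minus that in rats 17 to 24 was -0.60 on the log2 scale (SE 0.11, adjusted p = 0.00253, edgeR), that of SLC34A3 was -0.40 (SE 0.090, adjusted p = 0.00801) and that of PDZK1 was -0.38 (SE 0.12, adjusted p = 0.0387). The first 2 held in all 16 fits with 1 rat left out, and PDZK1 lost its call in 9 of them, those without WT rats 17, 19, 27, 29 or 31 or KO rats 18, 22, 24 or 28. PTH1R (-0.27, adjusted p = 0.0740) and FGFR1 (-0.24, adjusted p = 0.0842) did not pass, nor did SLC20A1 or SLC20A2. PTH1R passed with DESeq2 (adjusted p = 0.0437) and FGFR1 without WT rat 31 or KO rat 26, and the PDZK1 call was lost with library totals (adjusted p = 0.0821, edgeR).

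WT rats of the 2 ranges also differed. Of the 7 members 3 were called, with 18.3% of all symbols called. SLC34A3 was at 278, 292, 298 and 273 CPM in WT rats 17 to 24 and 328, 348, 376 and 373 CPM in WT rats 25 to 32 (log2 difference 0.30, adjusted p = 0.00814, edgeR). PDZK1 was at 1178, 1166, 1290.0 and 1311 CPM and 1349.8, 1453, 1623 and 1585 CPM (0.26, adjusted p = 0.0382). In both genes all 4 WT rats of the higher range were above all 4 of the lower range, and 22.7% of all symbols had ranges that did not overlap. On library totals both genes overlapped. SLC34A3 was then at 308.8 CPM in WT rat 25 and 309.2 in WT rat 19, and PDZK1 at 1271 in WT rat 25 and 1312 in WT rat 23. SLC20A1 went the other way, from 58.1, 58.5, 62.0 and 65.5 CPM to 55.6, 45.3, 50.1 and 53.6 CPM (-0.28, adjusted p = 0.0250). The number of calls fell to 1 without WT rat 21 or WT rat 29. The PDZK1 call was lost without WT rats 17, 19, 21, 29 or 31 and with library totals (0.15, adjusted p = 0.128), and that of SLC20A1 without WT rats 21, 23 or 29. SLC34A1 differed by 0.21 between WT ranges (adjusted p = 0.110, edgeR) and passed with DESeq2 (0.22, adjusted p = 0.0367).

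Set side by side, the KO rats of the 2 ranges differed most in SLC34A1, where all 4 KO rats 25 to 32 were below all 4 KO rats 17 to 24 and their mean was 77.9% of the latter. It was the 1 member of 7 whose KO ranges did not overlap, against 42.4% of all symbols. The KO means of rats 25 to 32 were 94.7% of those of rats 17 to 24 in SLC34A3, 93.5% in PDZK1 and 89.5% in PTH1R, with overlapping animals. These KO values were not tested. The wider gap of SLC34A3 and PDZK1 in rats 25 to 32 went with a higher WT level, while in SLC34A1 the WT mean was 117% and the KO mean 77.9% of that of the lower range.

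No member passed the limma test in the mouse, against a background of 4.32% of all symbols called in either direction (limma on log2 of the scaled value plus 1, Benjamini-Hochberg adjusted p under 0.05). The scaled value of the mouse table sets the 75th percentile of each library to 1. SLC34A1 was at 86.7, 146, 88.6 and 92.6 in the 4 WT mice. In the 4 KO mice it was at 101, 102, 97.5 and 90.1. A single WT mouse, number 2, stood above every other animal, and the KO values lay inside the WT range. The log2 fold change was -0.050 (SE 0.17, adjusted p = 0.962), and without WT mouse 2 it was 0.13 (adjusted p = 0.322, limma).

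SLC34A3 was the one of 7 members whose mouse groups did not overlap, as 11.6% of all symbols did not, so this count is near the background. Its scaled values were 1.62, 2.64, 1.65 and 2.04 in WT mice and 1.52, 1.35, 1.20 and 1.37 in KO mice. The KO mean was 68.5% of the WT mean, and the highest WT value again belonged to mouse 2. The limma log2 fold change of -0.33 (SE 0.11) did not pass the test (adjusted p = 0.160). On the recovered reads edgeR gave -0.56 (adjusted p = 0.0530), whereas DESeq2 called it, at -0.57 (adjusted p = 0.00110). For this low gene the added 1 makes the limma fold change smaller than that of the reads.

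The receptor PTH1R was at 20.4, 13.5, 18.01 and 12.6 in WT mice and at 11.2, 13.4, 12.9 and 13.7 in KO mice. WT mice 1 and 4 lay above all KO animals and WT mice 2 and 7 lay among them, so the difference of -0.29 (SE 0.15, adjusted p = 0.390, limma) was within the spread. The co-receptor KL was at 17.8, 27.3, 14.2 and 19.5 in WT mice and at 19.8, 23.3, 30.1 and 18.002 in KO mice. The ranges of KL overlapped over most of their width (log2 fold change 0.21, SE 0.22, adjusted p = 0.731, limma). Measured against the mean of 7 distal tubule markers, none of which passed the test, KL differed by -0.091 on the log2 scale (KO minus WT, exact two-sided permutation p = 0.400).

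The genes known from most tissues are given next. FGFR1 was at 1.88, 1.68, 1.76 and 1.71 in WT mice and 1.77, 1.87, 1.74 and 1.82 in KO mice, with a log2 fold change of 0.020 (adjusted p = 0.810, limma). SLC20A2 was at 1.41, 1.49, 1.40 and 1.23 in WT mice and 1.20, 1.40, 1.31 and 1.26 in KO mice (log2 fold change -0.055, adjusted p = 0.563, limma). In both genes the animals of the 2 genotypes overlapped. SLC20A1 was at 0.893, 0.962, 1.11 and 0.772 in WT mice and 1.15, 1.15, 1.19 and 1.07 in KO mice. In 3 of 4 KO mice SLC20A1 was above every WT mouse, and the KO mean was 122% of the WT mean, but the log2 fold change of 0.15 (SE 0.051) did not pass the test (adjusted p = 0.174, limma).

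**Figure D2:**
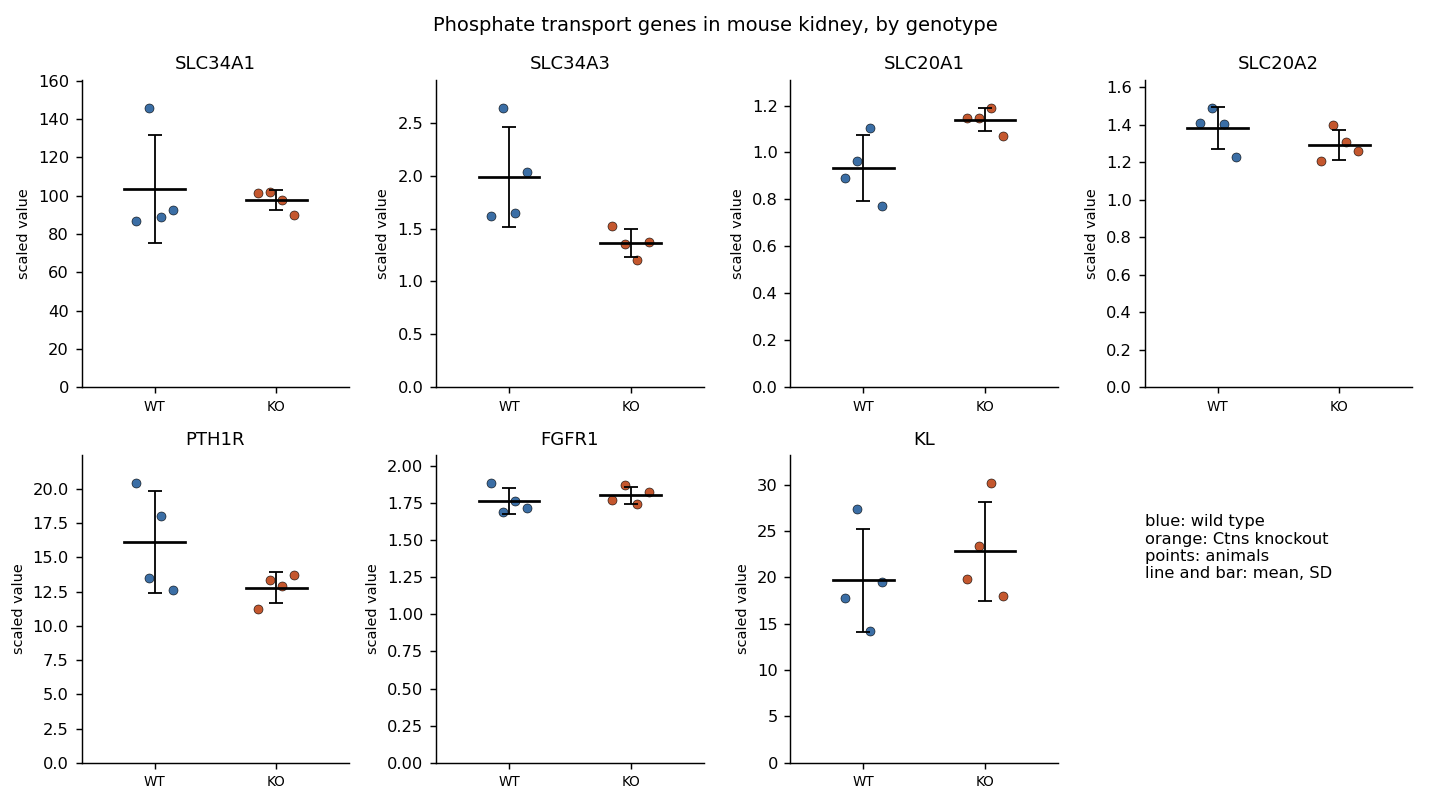
Scaled values (reads relative to the 75th percentile of the library, y axes from 0) of the 7 genes analysed in the mouse, by genotype, with 1 point per mouse and the mean and SD of 4 mice. SLC34A3 is the gene whose WT and KO points do not overlap, and WT mouse 2 stands alone at 146 in the SLC34A1 panel.

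**Figure D3:**
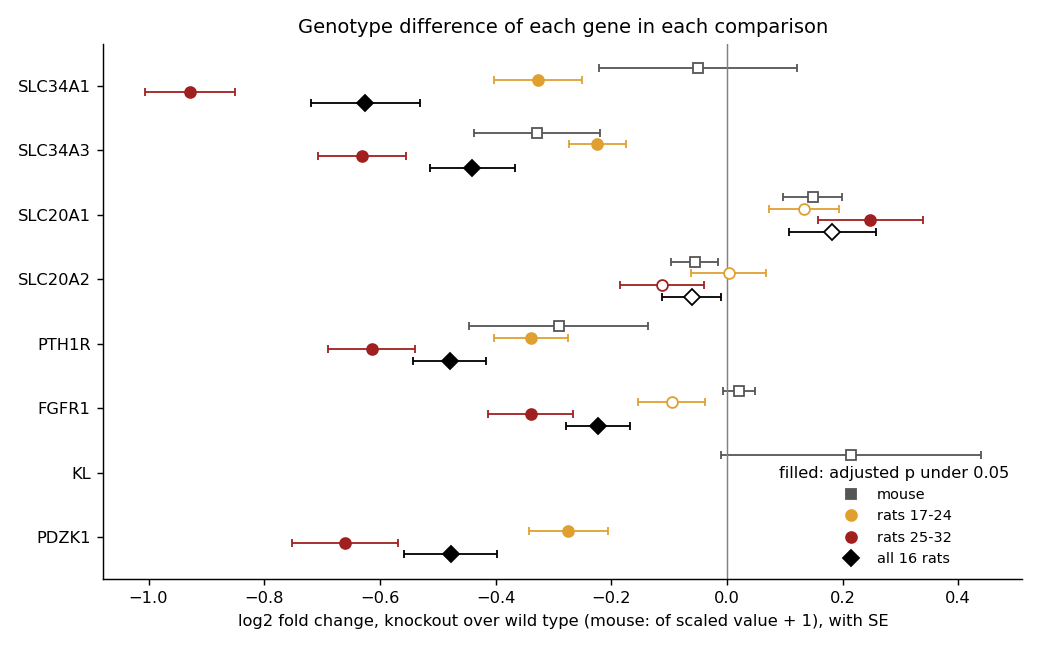
Log2 fold change of KO over WT with its SE (x axis) for each gene (rows) in mice, in rats 17 to 24, in rats 25 to 32 and in all 16 rats, where filled symbols mark an adjusted p under 0.05. SLC34A1 runs from -0.050 in mice to -0.93 in rats 25 to 32, and no mouse symbol is filled; PDZK1 has no mouse value and KL no rat value.

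The 2 species were measured in separate tables with separate scaling, and the difference between them was not tested. The KO mean of SLC34A1 was 94.3% of the WT mean in mice and 64.8% in rats. The corresponding values were 68.5% and 73.7% for SLC34A3, 79.3% and 71.7% for PTH1R, and 102% and 85.7% for FGFR1. SLC20A1 stood at 122% and 113%, and SLC20A2 at 93.5% and 95.8%.

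Markers of the proximal tubule fell in the same rats. Of 13 markers analysed in the rat (among them AQP1, CUBN, MIOX, HNF4A and SLC22A6) 10 were lower in KO animals (12.3% of all symbols were) and none higher, with a median log2 fold change of -0.58; their summed level was 14919 to 22027 CPM in WT rats and 10499.7 to 13639 CPM in KO rats. In rats 17 to 24 1 of 13 was lower (median -0.22, 2.19% of all symbols lower) and in rats 25 to 32 12 of 13 were (median -0.88, 22.1% of all symbols lower). In the mouse none of 15 markers passed by limma (3 had an unadjusted p under 0.05, and edgeR on recovered reads called 1 lower) and the median was -0.20. Macrophage markers were higher in KO rats, 5 of 6 against 15.2% of all symbols, from 78.4 to 144 CPM summed in WT to 126 to 347 CPM in KO rats. Fibroblast and pericyte markers (5 of 6 higher) and tubular injury markers (4 of 5 higher) were higher too. The part of these other cell types in the values of the 7 genes was not tested.

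Each member was also measured against the mean log2 level of the 13 proximal tubule markers in the same rat, with an exact two-sided permutation test over 8 against 8 rats and Benjamini-Hochberg adjustment over the 7 members measured. PTH1R, PDZK1 and SLC34A3 did not pass against the markers. They differed by 0.020 (adjusted permutation p = 0.769), 0.028 (adjusted permutation p = 0.740) and 0.069 (adjusted permutation p = 0.301) on the log2 scale, KO minus WT, and the sign of these differences turned in some of the alternatives. SLC34A1 minus markers was lower in KO than in WT rats, with a difference of -0.13 that did not pass after adjustment (adjusted permutation p = 0.0808, unadjusted p = 0.0462, exact test).

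The more widely expressed genes stood higher against the markers in KO rats. The markers themselves fell (median log2 fold change -0.58), so a gene that fell less stands higher without rising. In CPM the log2 fold changes were 0.18 for SLC20A1, -0.061 for SLC20A2 and -0.22 for FGFR1. The share of all symbols passing this test was not computed. SLC20A1 minus markers ran from -4.74 to -3.91 in WT and from -3.80 to -3.27 in KO rats, with no overlap and a difference of 0.69. SLC20A2 differed by 0.44 and FGFR1 by 0.28. All 3 had an adjusted permutation p of 0.000725. With the median of the marker list in place of its mean, FGFR1 differed by 0.18 and did not pass (adjusted permutation p = 0.0922). In rats 17 to 24 alone these 3 differences were 0.35, 0.22 and 0.12, with no adjusted permutation p below 0.133, and in rats 25 to 32 alone 1.03, 0.67 and 0.44. With 4 against 4 rats the exact test cannot go below 0.0286 before adjustment. SLC34A3 minus markers, in contrast to the fall of SLC34A3 in CPM, was higher in KO than in WT rats 25 to 32. The difference was 0.15, at the threshold (adjusted permutation p = 0.05, which SLC20A1, SLC20A2 and FGFR1 also had). In mice no member passed against the 15 markers; SLC34A3 differed by -0.36 and SLC20A1 by 0.46 (adjusted permutation p = 0.200 for both).

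**Figure D4:**
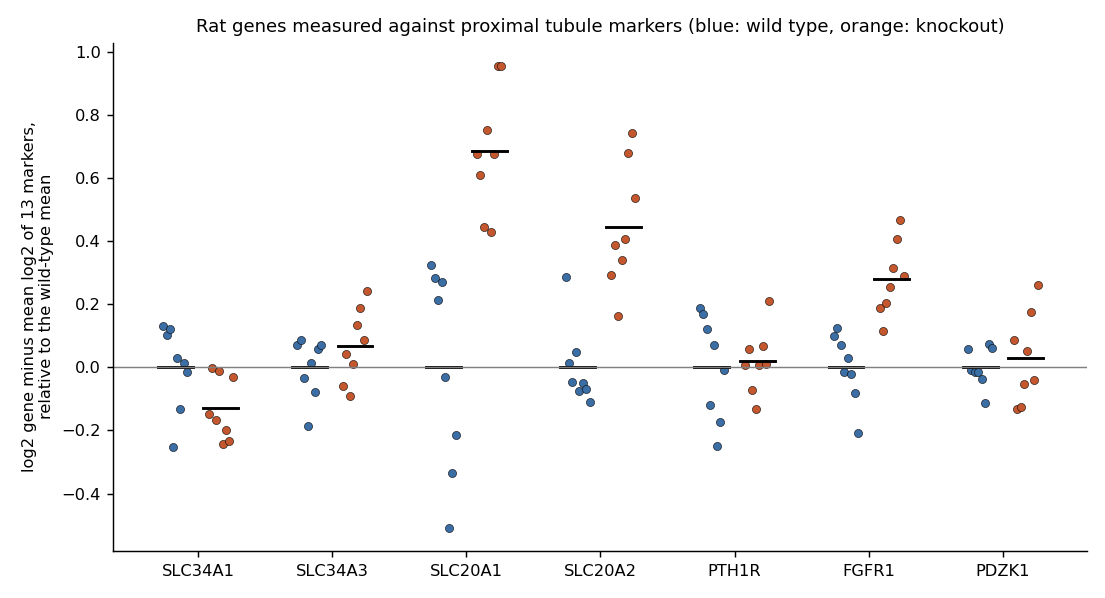
Level of each gene minus the mean log2 level of 13 proximal tubule markers in the same rat, set relative to the WT mean of that gene (y axis, log2 units), with 1 point per rat and a line at the mean of 8 rats. PTH1R, PDZK1 and SLC34A3 overlap between genotypes, whereas every KO rat of SLC20A1 is above the WT rats.

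Among the 6 phosphate transporters of the wider list, which adds SLC34A2 and the exporter XPR1, the largest rat change was in SLC34A2 (NPT2b), the SLC34 transporter known from intestine and lung. It was at 5.999, 4.39, 3.07 and 2.57 CPM in WT rats 17 to 24 and 15.8, 21.4, 14.5 and 20.6 CPM in KO rats of that range. In rats 25 to 32 it was at 9.86, 5.97, 3.77 and 5.71 CPM in WT and 61.8, 83.0, 69.8 and 55.9 CPM in KO animals. Every KO rat was above every WT rat, and the share of all symbols with this order was not computed. The log2 fold change was 3.06 over all rats (SE 0.41, adjusted p = 6.05e-05, edgeR), 2.198 in rats 17 to 24 and 3.42 in rats 25 to 32, with an interaction of 1.22 (adjusted p = 0.0355). Of the 6 transporters 1 was called higher and 2 lower over all rats, against 15.2% and 12.3% of all symbols. In rats 25 to 32, 2 were higher and 3 lower, against 21.8% and 22.1%. KO rats 25 to 32 held 67.6 ± 11.8 CPM of SLC34A2 (SD, n = 4), next to 229.9 ± 19.6 CPM of SLC34A3 and 3409 ± 279 CPM of SLC34A1; these levels are not corrected for length. In mice SLC34A2 was at 0.0968 ± 0.0159 in WT and 0.125 ± 0.0248 in KO animals (scaled value, SD, n = 4; adjusted p = 0.348, limma).

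**Figure D5:**
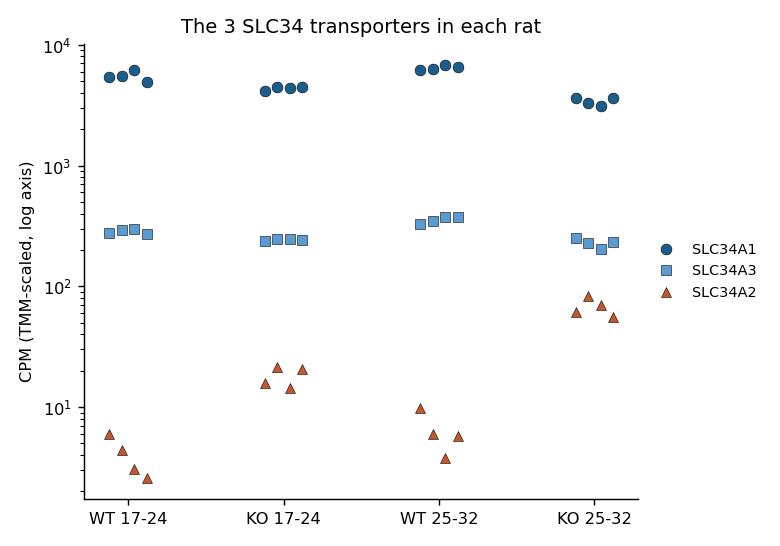
CPM of SLC34A1, SLC34A3 and SLC34A2 (y axis, logarithmic) in each rat by genotype and number range, 1 point per rat. SLC34A1 and SLC34A3 step down in KO rats while SLC34A2 steps up, to between 55.9 and 83.0 CPM in KO rats 25 to 32.

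In the rat parathyroid hormone list, which holds the receptor and its G proteins, adenylyl cyclases, protein kinases and arrestins, 17 genes were tested. PTH1R and ADCY9 were lower and ARRB2 was higher. ADCY9, an adenylyl cyclase, was at 7.80 ± 1.47 CPM in WT and 5.06 ± 1.84 CPM in KO rats (log2 fold change -0.62, adjusted p = 0.0289, edgeR). ARRB2, which encodes a beta-arrestin that takes part in receptor internalization, was at 15.2 ± 1.12 and 19.5 ± 3.61 CPM (0.36, adjusted p = 0.0103). The other 14 did not pass. These 3 of 17 stand against 12.3% of all symbols called lower and 15.2% called higher. In rats 25 to 32, 7 of 17 were lower and 1 higher, with 22.1% and 21.8% over all symbols, and in rats 17 to 24 only PTH1R passed.

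Of 19 genes tested on the FGF23 and klotho list, 4 were lower and 2 higher in KO rats, with 12.3% of all symbols lower and 15.2% higher, so that the count lay near the background. Besides FGFR1 the lower genes were FGFR4 (-0.17, adjusted p = 0.0180), FGFRL1 (-0.30, adjusted p = 0.0330) and FRS3 (-0.29, adjusted p = 0.00565, edgeR), which encode an FGF receptor, a receptor-like protein without a kinase and a docking protein for FGF receptors. EGR1, an immediate early gene, was higher, from 7.67 ± 1.22 CPM in WT to 16.6 ± 2.92 CPM in KO rats (1.12, adjusted p = 7.99e-06). SPRY2, an inhibitor of receptor tyrosine kinase signalling, was higher by 0.15 (adjusted p = 0.0481). The median over the list was -0.14, next to -0.020 over all symbols. In rats 25 to 32, 9 of the 19 were lower and 1 higher, with 22.1% and 21.8% over all symbols. In rats 17 to 24 none was lower and 1 was higher, with 2.19% and 5.07%. The interaction called 4 of the 19 more negative in rats 25 to 32, with 7.64% of all symbols called in this direction. In the mouse none of 23 genes passed by limma, while edgeR on recovered reads called FGFR3 lower (-0.44, adjusted p = 0.0215).

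Of the 8 brush border scaffold genes tested in the rat, 4 were lower and none higher, against 12.3% of all symbols called lower. Besides PDZK1 these were MYO6, a motor that moves towards the base of microvilli (-0.50, adjusted p = 0.00352), PDZD3, a PDZ protein related to PDZK1 (-0.47, adjusted p = 0.00598), and EZR, which encodes ezrin, the linker of the membrane to actin (-0.23, adjusted p = 0.0220, edgeR). PDZD3 was at 81.4 ± 8.27 CPM in WT and 58.8 ± 12.8 CPM in KO rats (SD, n = 8). The interaction with the number range was called for PDZK1, PDZD3 (-0.54, adjusted p = 0.00939) and MYO6 (-0.59, adjusted p = 0.0188). Of all symbols 7.64% were called in this direction. In the mouse all 7 scaffold genes analysed had a limma log2 fold change below 0 and none passed (median -0.11), while edgeR on recovered reads called PDZD3 lower (-0.29, adjusted p = 0.0263).

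Of 4 vitamin D genes tested in the rat, 1 was lower and none higher. Of all symbols 12.3% were lower and 15.2% higher, so that this count lay near the background. The lower gene was RXRA, the receptor that pairs with the vitamin D receptor (-0.48, adjusted p = 0.00453, edgeR). In mice RXRA came close to the threshold (-0.14, adjusted p = 0.0546, limma). CYP27B1, CYP24A1 and CYP2R1, the enzymes that make and break down active vitamin D, did not pass over all 16 rats. In rats 25 to 32, 3 of these 4 genes were lower and none higher, against 22.1% and 21.8% of all symbols. Their summed level was 220 to 378 CPM in WT and 290 to 461 CPM in KO rats of this range. CYP27B1, which makes the active hormone, was among the lower genes (-1.08, adjusted p = 0.00289, edgeR). The exporter XPR1 of the phosphate transporter list was lower in this range too (-0.91, adjusted p = 0.0116, edgeR). Both were chosen after their values were seen. Across the 5 lists no gene passed in the mouse by limma, and edgeR on recovered reads called FGFR3 and PDZD3.

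Among the genes whose pattern over the 16 rats was nearest to SLC34A1 were CMBL, XYLB, NQO2 and SPATC1, by the root mean square difference of centred log2 CPM among 8065 symbols of at least 10 CPM. Their differences from SLC34A1 were 0.0718 to 0.112, with a median of 0.375 over all symbols. PTH1R ranked 21 on this scale, SLC34A3 57 and PDZK1 80, whereas SLC20A1 ranked 6561. The nearest to PTH1R were ECHDC2, NIPSNAP1, ETHE1, HOGA1 and DCXR (0.0786 to 0.0875), and SLC34A3 ranked 30. The rats share their genotype groups and number ranges, so nearness describes these 16 animals.

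Over the 8 mice the nearest patterns to SLC34A1 were those of RENBP, SLC5A2, TTC38, PPARA and SLC35F3 (0.0693 to 0.0855 among 9511 symbols), with SLC5A2 the glucose cotransporter of the same tubule. In the SLC34A1 pattern WT mouse 2 stood apart (scaled value 146), and nearness was not computed without that mouse. SLC34A3 ranked 5793 and PTH1R 9108 among the mouse symbols. Nearest to KL were PHYHIP, VEGFD, SPINK8, CPM and DEFB1 (0.115 to 0.151), and nearest to PTH1R were SPC25, DDAH1, ROGDI, RTL5 and SDHAF1 (0.0533 to 0.0846).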

How the data were processed

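Libraries were made from 100 ng of total RNA with a stranded mRNA kit. Per the labels, the submitters' processing notes name bcl2fastq 2.20, STAR 2.7.3, DESeq2 1.24.0, R 3.6.1 and the builds mm10 and rn5. The authors deposited 1 table per species, with no transcript or length columns. The deposited mouse signal is each read count plus 0.5 relative to the 75th percentile of the library, and 99.0% of values came back as whole reads (within 0.01). The deposited rat values are estimated counts with a constant of 1/6 read added to each, which was taken off and the rest rounded here (97.7% were whole); every member value was whole in both species.

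Mouse values were tested with limma 3.58.1 (trend, robust) on log2(value + 1) without a filter, with edgeR on recovered reads as an alternative, and rat counts with edgeR 4.0.16 (quasi-likelihood, TMM, filterByExpr); p-values were adjusted over all symbols tested and called under 0.05. Levels in rats are CPM on TMM-scaled totals. DESeq2 1.42.0, another pseudocount, filters, scalings and leaving out each animal were alternatives. Exact permutation tests used scipy 1.17.1. The tests were tried on simulated data with known changes. Named were all members and, of each pathway list, the genes called in the mouse or in all rats, at most 6 per list by size. The members, marker and pathway lists were chosen with earlier results of these data known. Promoters came from RefSeq for 5 of the 8 genes in the rat, with mouse gene positions from GENCODE vM21 for all 8. Proteins were not used here, and 1 gene that the rule for nearest patterns names is not reported here.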

Additional observations from a re-analysis of the deposited data

Results flagged for a closer look

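In SLC34A1 of the WT mice, mouse 2 at a scaled value of 146 stood far from the other 3, the nearest of which was at 92.6. In PTH1R of KO rats 17 to 24, rat 24 was low at 512 CPM, with the nearest of the other 3 at 574 CPM. These 2 came from 56 groups examined by Dixon's criterion, in which chance alone sets apart about 1 group in 20.

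The genotype difference of 3 genes differed between the rat number ranges by the interaction test (edgeR, log2 difference in rats 25 to 32 minus that in rats 17 to 24). It was -0.60 for SLC34A1 (adjusted p = 0.00253), -0.40 for SLC34A3 (adjusted p = 0.00801) and -0.38 for PDZK1 (adjusted p = 0.0387). Proximal tubule markers moved with this difference, 8 of 13 being called lower by the same test (7.64% of all symbols were), and what the ranges stand for cannot be told apart from the animals in them.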

How the results depend on the processing

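Of 849 values recomputed under an alternative, 767 were taken as unchanged. For a difference this means the same direction and side of the threshold. Numbers of members called were also taken as unchanged when they moved little, as from 5 to 6 in all rats. In mice DESeq2 called 1 member, SLC34A3, where limma and edgeR called 0; at an unadjusted p under 0.05 limma had 2 of 7. Leaving out 1 animal moved the mouse SLC34A1 log2 fold change from -0.12 to 0.13, and the number of members called from 1 to 4 in rats 17 to 24 and from 1 to 3 between WT ranges. In rats 17 to 24 the small SLC20A2 difference ran from -0.040 to 0.029 with 1 rat left out, and was -0.0038 with DESeq2 size factors, -0.0043 with DESeq2 and -0.0013 without a filter.

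Library totals in place of TMM, an alternative chosen after seeing the data, turned SLC20A2 to 0.035 in all rats, 0.050 in rats 25 to 32 and 0.031 in the interaction, and PTH1R to -0.022 between WT ranges; PDZK1 lost its interaction call (adjusted p = 0.0821, edgeR).

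Against proximal tubule markers, the 3 members called over all rats became 0 in rats 17 to 24 alone, where 4 against 4 rats limit the exact test. Differences near 0 turned: with the median of the list in SLC34A3 (-0.026), PTH1R (-0.075) and PDZK1 (-0.067); with markers of segments 1 and 2 in PTH1R (-0.030), PDZK1 (-0.023) and mouse SLC20A2 (-0.013); and in rats 17 to 24 in SLC34A3 (-0.0089), PTH1R (-0.12) and PDZK1 (-0.060). Leaving out 1 mouse, PTH1R ran from -0.31 to 0.021. KL against distal tubule markers was not run in the rat. The depth was at least 732 reads per member and animal. No paired analysis was made, because WT and KO animals share no numbers and the labels do not say which animals were littermates of each other.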

Other observations

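Cell cycle markers, 3 of which were tested in the rat, were all higher in KO rats (median log2 fold change 2.45, 15.2% of all symbols higher). In KO mice 5 of 5 were higher, against 3.50% of all symbols by limma and 6.06% by edgeR. The mouse median was 0.19 on the log2 scale of the scaled value plus 1, and 2.65 by edgeR on recovered reads. Lymphocyte markers were higher in KO rats (3 of 3 tested, against 15.2% of all symbols). Their levels were low, with 5 symbols summing to 2.39 to 6.18 CPM in WT and 5.31 to 13.1 CPM in KO rats. In mice they passed in none of 5 by limma or edgeR (0 by limma with an unadjusted p under 0.05). Podocyte markers (0 of 5 called, 0 with an unadjusted p under 0.05) and endothelial markers (0 of 4, 1 with one) did not pass over all rats by edgeR, where 27.5% of all symbols were called. In rats 25 to 32, 1 of 5 podocyte and 2 of 4 endothelial markers were lower, against 22.1% of all symbols. Over all rats 1 of 3 thick limb markers was higher and 1 lower, against 15.2% and 12.3% of all symbols. Segment 3 markers of the proximal tubule gave 1 higher and 1 lower of 5 in rats, against the same shares. Those of segments 1 and 2 gave 4 lower of 6 (12.3% of all symbols were). The sum of 4 sex-linked markers was 19.3 to 21.4 in WT mice (scaled value). In KO mice it ran from 0.0533 to 22.5, with a median of 20.6. The reason for the low KO value was not tested.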
